A study of Mus musculus with 12 samples.

Results

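The baseline transcriptome of the embryonic mouse ventricle was described from the 6 libraries labelled genotype control, of 12 libraries in the series. Bulk RNA sequencing was carried out on ventricles dissected from mouse (Mus musculus) hearts at embryonic day 12.5, a stage at which the chambers are beating, dividing and thickening. The other libraries of the series carry Wnt gain of function and enter no comparison here. The labels give the controls no allele, Cre driver or strain, and do not say whether a library holds 1 embryo or several. Replicates are not tied to separate animals in the labels, so spreads and p-values measure only the variation between these libraries, which may be technical.

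The embryonic ventricle is built from cardiomyocytes, an inner endocardial lining, an outer epicardial layer and cushion mesenchyme near the valves, and it is filled with primitive red cells. Cardiomyocytes contract with sarcomeres whose myosin, actin and troponin subunits come in paralogs, some used in the fetus and others in the adult. Calcium released through ryanodine receptors starts each beat and is pumped back by the SERCA pump. Fetal heart muscle relies mainly on glucose and lactate, and turns to fatty acids after birth.

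The deposited counts summed to between 10130088 and 17526325 reads per library. Levels are given as CPM, each gene's reads relative to its library's scaled total, and a level is compared between genes only as CPM per kilobase of transcript. Libraries 2 and 3 stood apart from the other 4. Their log2 CPM correlated at r = 0.994, and 65 genes differed by over 2-fold between them, against 120 to 725 genes in the other 14 pairs. Libraries 4 and 5 were the next closest pair, with r = 0.992. No pair agreed within sampling noise: the mean chi-square per gene, about 1 for repeat draws from the same library, was 3.45 for libraries 2 and 3, 12.9 for libraries 4 and 5, and 19.8 to 91.2 for the rest. The labels give all 6 as separate samples and they were counted so, although separate preparations from the same RNA or embryo would also differ by more than sampling noise, and results that rest on these pairs are also given without them or with each pair summed.

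A gene was called detected at 1 CPM or more in all 6 libraries, which is 10.1 to 17.5 reads at these depths. Of 40800 genes, 13028 (31.9%) were detected, and of 21864 protein-coding genes, 11990 (54.8%). Reads were concentrated in few of them. The 20 genes with most reads took 16.4% ± 1.78 (SD, n = 6) of each library, and the 100 with most reads took 28.7% ± 1.59. The 89 genes at or above 1000 CPM took 27.6% of reads, and the 1877 genes from 100 to 1000 CPM took 42.9%.

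The gene with the highest level per kilobase was Hbb-y, the embryonic epsilon-like beta globin of primitive red cells, at 41682 ± 35012 CPM per kb (SD, n = 6). The mitochondrial 16S ribosomal RNA mt-Rnr2 followed at 17888 ± 2754 CPM per kb. Hba-x, the embryonic zeta globin, stood at 8285 ± 6188 CPM per kb, so the globin SDs came near their means while that of mt-Rnr2 did not. The first sarcomere gene was Actc1, cardiac alpha-actin, at 6775 ± 834 CPM per kb. Myl2, the ventricular regulatory light chain, had 4298 ± 485 CPM per kb, Myl3, the ventricular essential light chain, 3488 ± 379, and Myl7, the atrial regulatory light chain, 3430 ± 1309. Tnni1, slow skeletal troponin I, had 3327 ± 417 CPM per kb and Tnnt2, cardiac troponin T, 3242 ± 569. With Tpm1, tropomyosin, at 2830 ± 228 CPM per kb and Tnnc1, cardiac troponin C, at 2748 ± 288, 8 of the 20 highest genes per kilobase were sarcomere genes.

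**Figure D1:**
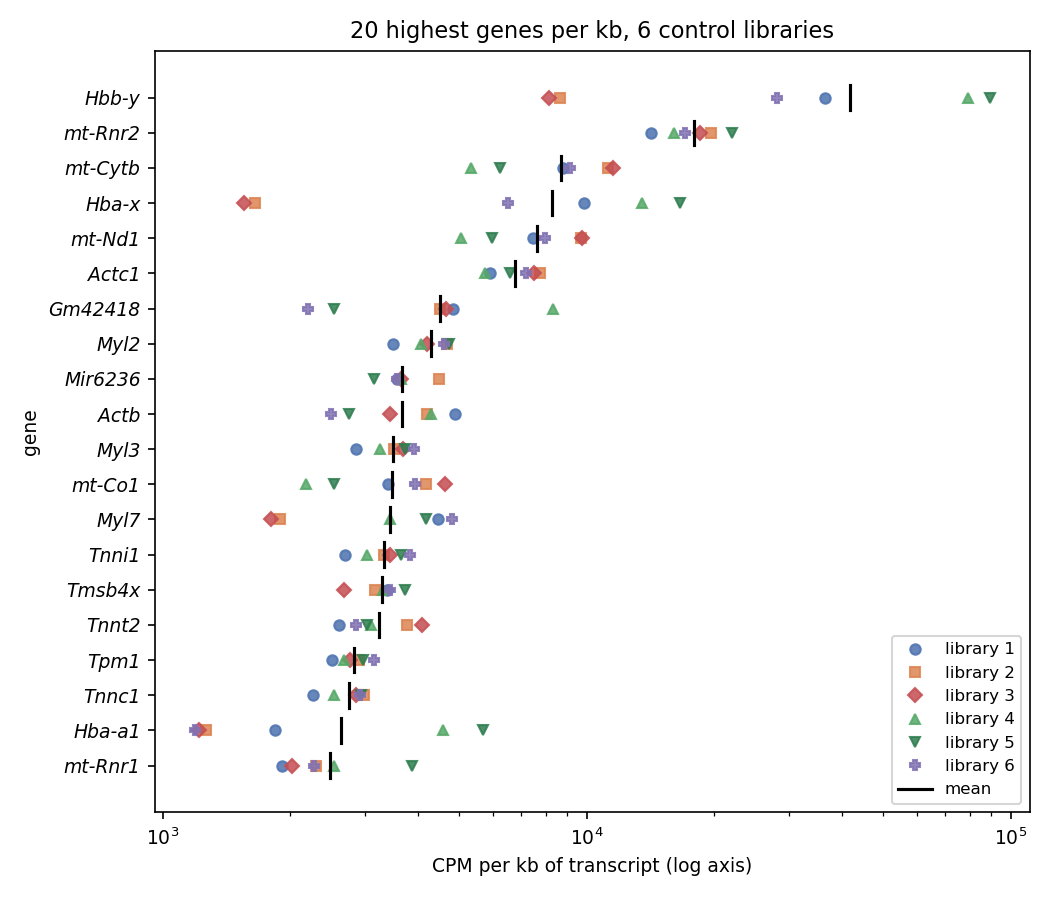
Levels of the 20 genes with the highest mean CPM per kb of transcript, on a log axis. Each symbol is 1 of the 6 control libraries and the black bar is their mean. Hbb-y and Hba-x spread over about a decade, with libraries 2 and 3 lowest, while Actc1, Myl2, Tpm1 and Tnnc1 stay within narrow ranges.

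Among the 100 highest genes per kilobase, 14 belonged to the sarcomere, Z-disc and cytoskeleton lists, 22 were nuclear genes of the respiratory chain and ATP synthase, 11 were ribosomal proteins, 9 were mitochondrially encoded, 6 were haemoglobins and 4 were glycolytic enzymes. Titin (Ttn), the giant spring of the sarcomere, ranked high in reads at 10213 ± 1879 CPM but had 95.6 ± 17.6 CPM per kb, over a transcript of 106824 bases. Malat1, a nuclear long noncoding RNA, had 2060 CPM per kb, and Gyg, the glycogenin that primes glycogen synthesis, 1527 CPM per kb. Actb, the cytoskeletal beta-actin, and Tmsb4x, the actin-binding thymosin beta, had 3673 ± 940 and 3281 ± 348 CPM per kb (SD, n = 6). The annotated noncoding genes Gm42418 and Mir6236 also ranked among the 20 highest per kilobase. Gm42418 is known to collect reads of ribosomal RNA sequence, and it ranged from 4039 CPM in library 6 to 15224 CPM in library 4.

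Promoter sequences are shown for 6 of these genes to let a reader see the control regions of embryonic and adult-type globins, whose levels differed between libraries, and of a heart actin and a light chain gene. Each stretch is the 100 bases before the transcription start, 5′ to 3′ on the gene's strand, from RefSeq on GRCm38.p6. Capitals mark matches on either strand to the TATA-type letters TATAA or CATAAA, to CCAAT, the letters read by nuclear factor Y, to CACCC, read by KLF factors, to GATAA, read by GATA factors, and to the CArG box, read by serum response factor. Overlapping matches run together.
Hbb-y: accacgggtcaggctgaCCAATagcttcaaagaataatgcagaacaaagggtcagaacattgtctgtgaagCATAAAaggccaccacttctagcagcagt
Hba-x: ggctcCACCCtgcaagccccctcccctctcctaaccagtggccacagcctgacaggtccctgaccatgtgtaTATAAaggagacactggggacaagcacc
Hbb-bs: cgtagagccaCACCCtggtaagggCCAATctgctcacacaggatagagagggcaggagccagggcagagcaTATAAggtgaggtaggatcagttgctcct
Hba-a1: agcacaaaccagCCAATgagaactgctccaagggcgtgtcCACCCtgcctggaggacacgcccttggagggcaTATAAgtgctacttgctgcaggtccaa
Actc1: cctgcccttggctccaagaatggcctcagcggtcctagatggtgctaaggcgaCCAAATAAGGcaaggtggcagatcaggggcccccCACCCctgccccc
Myl7: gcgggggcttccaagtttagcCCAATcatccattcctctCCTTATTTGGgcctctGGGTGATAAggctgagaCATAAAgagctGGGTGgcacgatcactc

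The stretches lie at chr7:103853208-103853307 (minus strand, Hbb-y), chr11:32276500-32276599 (plus strand, Hba-x), chr7:103827929-103828028 (minus strand, Hbb-bs), chr11:32283572-32283671 (plus strand, Hba-a1), chr2:114052876-114052975 (minus strand, Actc1) and chr11:5898783-5898882 (minus strand, Myl7). Of 32844 promoters of this length in the RefSeq table, 10.2% held TATAA, 4.33% CATAAA, 18.9% CCAAT, 27.2% CACCC, 8.55% GATAA and 0.615% a CArG box. Hba-x, Hbb-bs and Hba-a1 held TATAA, which began 28, 29 and 27 bases before the start. In Hbb-y and Myl7 the letters at that position were CATAAA, beginning 29 and 28 bases before it. Actc1 and Myl7 each held a CArG box, beginning 47 and 61 bases before the start. These matches are descriptions of the letters and do not show binding.

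The globins gave both the highest level and the widest range among abundant genes. Hbb-y stood at 23078, 5459, 5145, 50258, 56584 and 17785 CPM in libraries 1 to 6, and Hba-x at 5706, 956, 901, 7829, 9613 and 3776 CPM. Hbb-bh1, a second embryonic beta-like globin, stood at 615, 34.2, 27.8, 656, 728 and 435 CPM. All 3 embryonic globins were lowest in libraries 2 and 3 and highest in libraries 4 and 5.

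The adult-type globins did not keep that order. Hbb-bs and Hbb-bt, the adult beta globins, ranged from 345 to 2166 CPM and from 278 to 1606 CPM, with libraries 1 and 6 lowest. Hba-a1, the adult alpha globin, ranged from 832 to 3975 CPM. As a share of beta-like globin per kilobase, Hbb-y made up 93.9%, 65.3%, 68.3%, 92.9%, 92.8% and 94.4% in libraries 1 to 6. Hba-x made up 84.3%, 52.8%, 52.6%, 72.5%, 72.2% and 82.6% of alpha-like globin. Libraries 2 and 3 thus had both the least globin and the smallest embryonic share of it. Adult globins come in near-identical copies: 65.8% of 50-base windows of the Hbb-bs transcript, 58.3% of Hbb-bt, 67.5% of Hba-a1 and 86.9% of Hba-a2 also occur in another gene's transcript, so how reads were split among these 4 genes is uncertain. Hba-a2 was 3.00 CPM in library 1 and 98.7 to 394 CPM in the other 5. Haemoglobin genes took from 0.948% of reads in library 3 to 7.37% in library 5.

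In the sarcomere, paralogs were used unequally and in the same order in nearly every library. Of 66 paralog pairs, 57 were called, meaning that a two-sided exact sign-flip permutation test of the log2 ratio per kilobase gave p = 0.03125, the smallest that 6 libraries allow, and an adjusted p of 0.0362 over all pairs (Benjamini-Hochberg). This is reached where every library has the same gene higher, so a call gives the order of 2 genes and not the size of the gap. The first-named gene was higher in 48 called pairs and the second in 9, and 24 of the called pairs differed by over 8-fold, leaving out Tnnc1/Tnnc2. Folds depend on the length used: for 37 of the 57, one of 3 other settings (all annotated exons, the coding sequence, or no division by length) moved the fold by over 1.5 times, and for named pairs the range over the 4 settings is then given. All 57 kept 1 sign when libraries 2 and 3, and 4 and 5, were summed, a design of 4 samples whose smallest exact p is 0.125. Of 13 sarcomere pairs, 12 were called, all with the first-named gene higher, and 8 by over 8-fold, again leaving out Tnnc1/Tnnc2. The share called is near that of all 66 pairs. The pairs were chosen with earlier results of these data known, so these counts describe them and do not test a family.

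Myh7, the slow beta myosin heavy chain of fetal ventricle, was 4.55-fold above Myh6, the fast alpha chain of adult mouse ventricle, at 459 ± 123 against 98.7 ± 13.2 CPM per kb (SD, n = 6). Its share of myosin heavy chain per kilobase was 81.2% ± 2.01, with Myh6 at 17.9% ± 2.05 (SD, n = 6). Of the 50-base windows of the Myh7 and Myh6 transcripts, 22.2% and 22.6% also occur in another gene's transcript. Myh7b made up under 1%, and the skeletal chains Myh1, Myh2, Myh4 and Myh8 each averaged under 1 CPM. Actc1 was 36.2-fold above Acta1, skeletal alpha-actin, at 6775 against 192 CPM per kb, and 11.5-fold above Acta2, smooth muscle actin, at 587 CPM per kb. Acta1 was detected in every library, at 198 to 399 CPM.

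Troponin I was mixed. Tnni1, the fetal form, was 2.72-fold above Tnni3, the cardiac form that replaces it after birth, and Tnni3 made up 26.8% ± 2.60 of troponin I per kilobase (SD, n = 6). Troponin T was mainly Tnnt2, at 91.4% ± 0.754, with 8.49% from Tnnt1, the slow skeletal form. Troponin C reads all fell on Tnnc1. Tnnc2, fast troponin C, was listed at 0 in all 6 libraries, but 74.0% of its exonic bases overlap another gene on the opposite strand, so no fold is given. Tpm1 was 57.0-fold above Tpm2, and Mybpc3, the cardiac myosin-binding protein, was 59.3-fold above Mybpc1, its slow skeletal paralog. Nebl, which encodes nebulette, was 232-fold above Neb, the skeletal nebulin, and Myom1 was 113-fold above Myom2, another M-band protein. Myom2 itself stood at 11.1 CPM in both libraries 2 and 3 and at 1.65 to 2.72 CPM in the other 4. Over the 4 length settings Nebl was 83.3- to 588-fold above Neb, Tpm1 21.5- to 57.0-fold above Tpm2, and Tnnt2 3.48- to 12.2-fold above Tnnt1.

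The regulatory light chains were the sarcomere pair with no fixed order. Myl2 made up 43.9%, 71.3%, 70.0%, 54.1%, 53.1% and 48.9% of Myl2 plus Myl7 per kilobase in libraries 1 to 6, and the mean log2 ratio of Myl7 to Myl2 was -0.42 ± 0.69 (SD, n = 6, adjusted p = 0.266 by the exact permutation test). Myl7 stood at 2623, 1114, 1062, 2028, 2469 and 2845 CPM, while Myl2 ranged from 2541 to 3456 CPM. With the union of all annotated exons as length the ratio changed sign, to 1.00. The ventricular essential chain Myl3 was 1.75-fold above the atrial and fetal chain Myl4, and its share was 68.0% and 69.2% in libraries 2 and 3 against 57.0% to 60.7% in the other 4. Over the length settings Myl3 was 1.65- to 3.95-fold above Myl4.

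**Figure D2:**
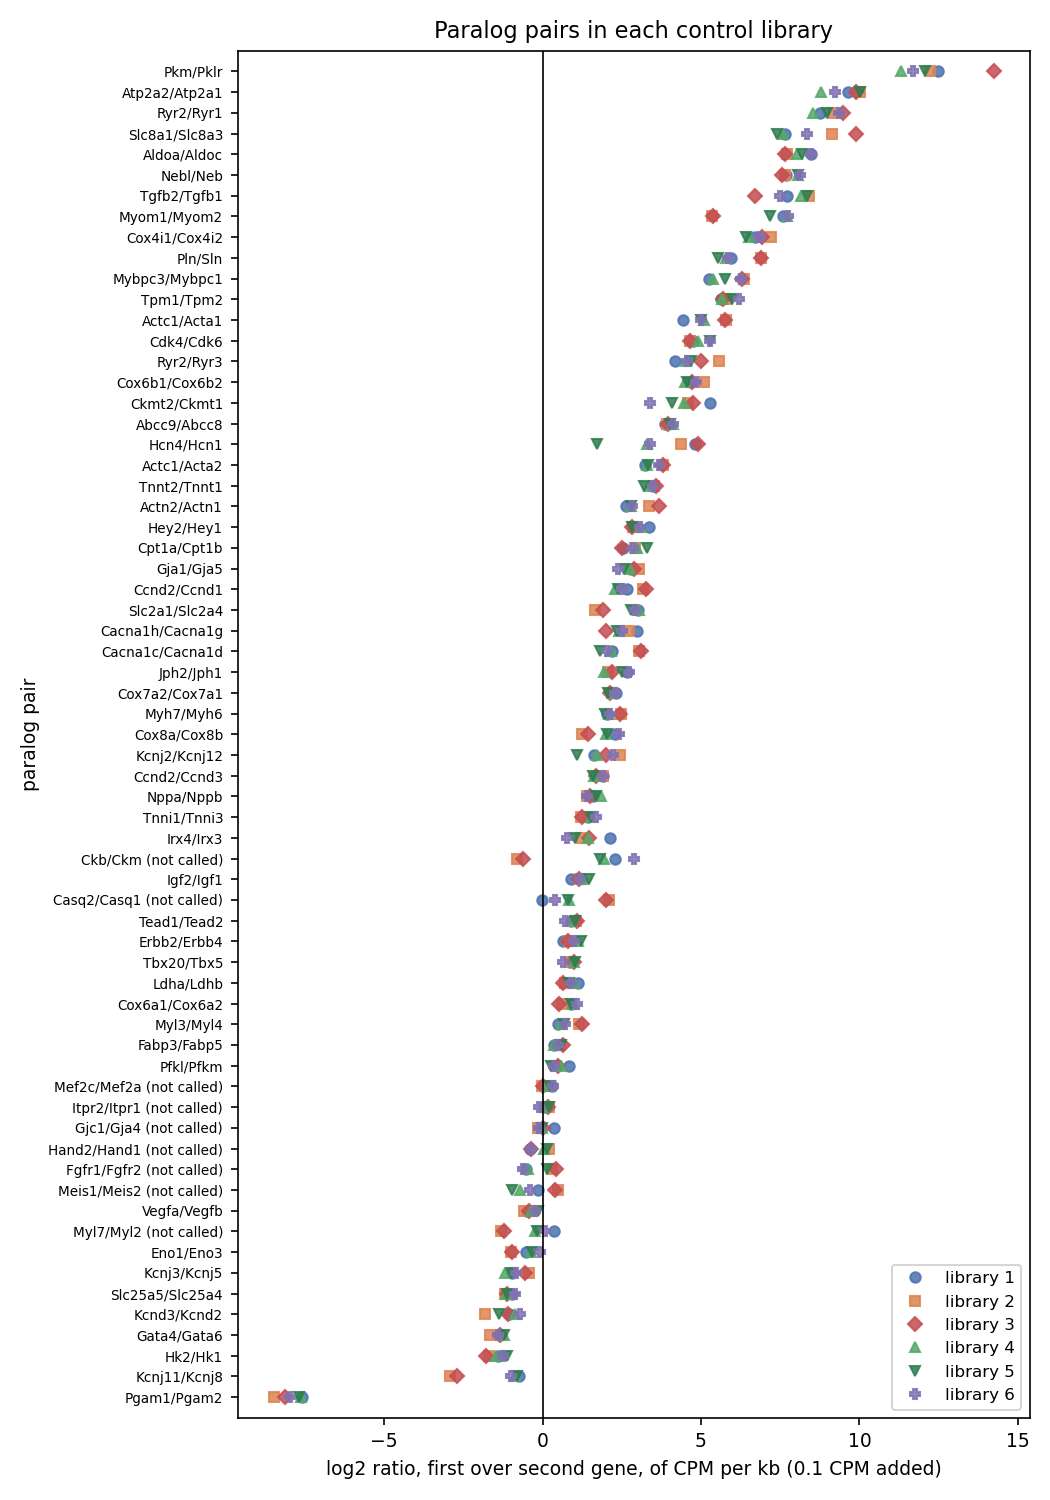
Log2 ratio of CPM per kb of the first to the second gene of 65 paralog pairs with 0.1 CPM added, Tnnc1/Tnnc2 left out because Tnnc2 was listed at 0. Each symbol is 1 of the 6 control libraries, and the line at 0 marks equal levels. Ckb/Ckm, Casq2/Casq1 and Myl7/Myl2 show libraries 2 and 3 away from the other 4.

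Z-disc and costamere genes were high in every library. Smpx, a small muscle protein, had 1071 CPM per kb, Ankrd1, a titin-bound stress protein, 876, Csrp3, muscle LIM protein, 765, Cryab, a small heat shock chaperone of the Z-disc, 758, and Actn2, sarcomeric alpha-actinin, 540 CPM per kb. Actn2 was 8.08-fold above the non-muscle Actn1. Of the 20 genes of this list 19 were detected, against 54.8% of protein-coding genes, and Myot, the myotilin of skeletal Z-discs, averaged 0.314 CPM.

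Calcium handling genes favoured the cardiac paralogs, and 8 of 10 pairs were called, near the share of 57 of 66 over all families. Pln, the phospholamban that restrains the SERCA pump, had 675 ± 182 CPM per kb (SD, n = 6) and was 71.3-fold above its atrial and skeletal relative Sln. Of the exonic bases of Pln, 64.7% overlap another annotated gene on the opposite strand. The pump Atp2a2 stood at 115 ± 6.66 CPM per kb and made up 99.3% of the 3 SERCA genes. Ryr2, the cardiac release channel, stood at 13.4 ± 1.48 CPM per kb, which was 26.9-fold above Ryr3 and 528-fold above Ryr1, the skeletal channel. Slc8a1, the sodium-calcium exchanger, was 323-fold above Slc8a3. The folds against Ryr1 and Slc8a3, which averaged 0.293 and 0.680 CPM, lean on few reads and on the 0.1 CPM added. With the other lengths included, Slc8a1 was 84.8- to 323-fold above Slc8a3, and Pln 60.3- to 126-fold above Sln.

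The 2 calcium pairs without a fixed order were Itpr2/Itpr1 and Casq2/Casq1. The IP3 receptors Itpr2 and Itpr1 had 7.27 and 6.75 CPM per kb, with an adjusted exact permutation p of 0.135. Casq2, the cardiac calsequestrin that stores calcium, stood at 255, 766, 767, 413, 399 and 338 CPM in libraries 1 to 6. Casq1, the skeletal form, stood at 195, 136, 146, 175, 174 and 194 CPM. The mean log2 ratio of Casq2 to Casq1 per kilobase was 1.02 ± 0.85 (SD, n = 6, adjusted exact permutation p = 0.0711), with Casq2 higher in 5 of 6 libraries.

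Channel genes stood at 28.3 CPM per kb or less. Of 24 sodium, potassium and pacemaker channel genes 15 were detected, a share near the 54.8% of all protein-coding genes. Kcne1, an accessory subunit of a delayed rectifier channel, had the highest level of the list, followed by Abcc9, a regulatory subunit of ATP-sensitive potassium channels, at 16.3. Hcn4, the main pacemaker channel of the sinus node, had 0.215 CPM per kb. Abcc9 was 16.0-fold above Abcc8, and Kcnj2 was 3.61-fold above Kcnj12, the other inward rectifier. In 3 pairs the second gene was higher: Kcnj5 was 1.77-fold above Kcnj3, Kcnd2 was 2.22-fold above Kcnd3, and Kcnj8 was 2.84-fold above Kcnj11. The log2 ratio of Kcnj11 to Kcnj8 was -2.91 and -2.72 in libraries 2 and 3 and -0.73 to -1.01 in the others. Without libraries 2 and 3 its mean was -0.85. Kcnj2 was, over the length settings, 3.61- to 9.88-fold above Kcnj12, Kcnd2 2.22- to 7.99-fold above Kcnd3, and Abcc9 16.0- to 24.6-fold above Abcc8.

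Connexin RNA was mainly Gja1, connexin 43, which made up 78.7% ± 4.05 (SD, n = 6) of 9 connexins per kilobase. Gja5, connexin 40 of trabecular and later conduction myocardium, made up 11.9% ± 1.37. Over the length settings Gja1 was 3.23- to 6.66-fold above Gja5. Of the 50-base windows of the Gja5 transcript, 21% also occur in another gene's transcript. Gja4 and Gjc1, which are vascular and early cardiac connexins, made up 4.57% and 4.63%, and their order differed between libraries. Gja3 made up 0.179%, and the other 4, Gjb1, Gjb2, Gjb6 and Gjd3, each averaged under 1 CPM. Gja1 stood at 1289, 1907, 1912, 1168, 944 and 1061 CPM in libraries 1 to 6, so that libraries 2 and 3 were highest again.

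The summed level of cardiac transcription factors was even between libraries. Of 40 listed, 34 were detected, against 54.8% of protein-coding genes, 2 of 35 fitted were variable (a coefficient of variation at least 2 times that of genes of their level, which held for 1.46% of all fitted genes), and the summed list varied by 1.11-fold, from 2862 to 3177 CPM. Foxp1 had 119 CPM per kb, Smyd1, a muscle methyltransferase, 100, Gata6 63.5, Meis2 52.8 and Mef2c 50.2 CPM per kb. Nkx2-5, a homeobox factor of the heart field, stood at 5.00 ± 1.17 CPM per kb (SD, n = 6), or 6.25 to 10.6 CPM.

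Within factor families, Gata6 was 2.58-fold above Gata4, and Gata5 made up 3.31% of the 3 GATA genes. Hey2, a Notch target of compact ventricular myocardium, was 8.06-fold above Hey1. Irx4, the ventricular Iroquois factor, was 2.53-fold above Irx3 and made up 41.8% of 6 Iroquois genes. Tead1, a partner of the Hippo coactivators, was 1.93-fold above Tead2, and Tbx20 was 1.86-fold above Tbx5. Over the length settings Gata6 was 1.47- to 2.58-fold above Gata4, Tead1 1.93- to 5.77-fold above Tead2, and Tbx20 1.67- to 4.99-fold above Tbx5. Mef2c and Mef2a, at 50.2 and 45.3 CPM per kb, Hand2 and Hand1, at 9.69 and 10.6, and Meis1 and Meis2, at 44.5 and 52.8, were not called, so no order is given. Mef2b and Tbx1 were listed at 0 in all 6 libraries, which with 77790433 reads in all allows up to 0.0386 CPM over the 6 by counting error alone, and is not read as absence.

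Genes that mark the trabecular and the compact wall were both present. The trabecular natriuretic peptide genes Nppa and Nppb had 938 ± 148 and 316 ± 49.7 CPM per kb (SD, n = 6), and Nppa was 2.97-fold higher. An annotated gene overlaps 61.5% of the exonic bases of Nppa on the opposite strand. Cited1 had 472 CPM per kb and Cdkn1c, the cell cycle inhibitor p57, 399. On the compact side, Hey2 had 38.0, Tbx20 38.1 and Mycn, which supports proliferation, 8.49 CPM per kb. All 18 listed genes were detected, against 54.8% of protein-coding genes, and 0 of 18 were variable, against 1.46% of all fitted genes.

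Growth factor genes were led by the insulin-like growth factor system. Igf2 stood at 307 ± 21.6 CPM per kb (SD, n = 6), which was 2.28-fold above Igf1, and Igf2r, the receptor that removes Igf2, at 214 CPM per kb. Of the exonic bases of Igf2, 62.8% also lie in another annotated gene on the same strand, so its level is uncertain, and over the length settings it was 2.28- to 8.14-fold above Igf1. Tgfb2, a ligand of cushion formation, had 54.3 CPM per kb and was 225- to 360-fold above Tgfb1 over the length settings, Tgfb1 averaging 0.452 CPM. Erbb2 was 1.91-fold above Erbb4, its partner in neuregulin signalling, but with coding length the log2 ratio was -0.24. Vegfb was 1.30-fold above Vegfa, but with no division by length the log2 ratio of Vegfa to Vegfb was 0.24. Fgfr1 and Fgfr2, at 5.98 and 6.82 CPM per kb, were not called. Bmp10, a trabecular growth factor, had 2.03 CPM per kb, and Nrg1, the endocardial neuregulin, 4.42.

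Glucose metabolism used mainly the ubiquitous or fetal isoforms, with named exceptions. Slc2a1, the basal glucose transporter, was 5.85-fold above Slc2a4, the insulin-responsive transporter of adult heart. Hk1, hexokinase 1, was 2.75-fold above Hk2. Aldoa, aldolase A, was the most abundant glycolytic gene per kilobase at 1842 ± 211 CPM per kb (SD, n = 6), and Pkm, pyruvate kinase M, had 643. Ldha, the lactate-forming subunit, was 1.82-fold above Ldhb. The muscle forms Eno3 and Pgam2 were called above Eno1 and Pgam1. With the other lengths included, Hk1 was 1.34- to 2.75-fold above Hk2, Ldha 1.20- to 2.53-fold above Ldhb, Eno3 1.13- to 3.48-fold above Eno1, and Pgam2 115- to 270.1-fold above Pgam1.

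Enzymes with near-identical processed copies in the genome limit that list. Gapdh was listed at 15.7 to 39.2 CPM and Pgam1 at 3.84 to 6.34 CPM, far below their neighbours in the pathway. Of the 50-base windows of their transcripts, 27.2% and 41.5% also occur in another gene's transcript, as do 72.2% for Eno1, 68.0% for Pgk1 and 34.4% for Pkm. The share was 16.65% for Ldha, 27.01% for Ldhb and 13.53% for Aldoa. The 1.46-fold excess of Eno3, the 242-fold excess of Pgam2 and the excess of Ldha over Ldhb involve genes with shared windows. The part of these windows in the ratios was not tested. Over all 66 pairs, 12 had a gene with more than 10% of its windows shared, and 46 of the 54 others were called.

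In the respiratory chain the broadly expressed subunits were higher than the heart or tissue-restricted forms in all 5 COX pairs. Cox4i1 was 110-fold above Cox4i2, Cox6b1 26.6-fold above Cox6b2, Cox7a2 4.60-fold above the heart and muscle form Cox7a1, and Cox8a 3.74-fold above Cox8b. Cox6a2, the heart form, was closer, with Cox6a1 1.77-fold above it. Slc25a4, the heart and muscle adenine nucleotide carrier, was 2.10-fold above Slc25a5, in the opposite direction to the COX pairs, though 46.6% of Slc25a5 windows are shared. Over the length settings Cox4i1 was 58.2- to 116-fold above Cox4i2, Cox6b1 26.6- to 65.8-fold above Cox6b2, Cox8a 3.32- to 5.79-fold above Cox8b, and Slc25a4 2.10- to 3.26-fold above Slc25a5. Of mitochondrially encoded genes, mt-Cytb had 8708, mt-Nd1 7650, mt-Co1 3476 and mt-Nd5 1823 CPM per kb, while mt-Co2, mt-Co3, mt-Nd3, mt-Nd4l, mt-Atp6 and mt-Atp8 were listed at or near 0. Of the windows of the first 5, 98.0% to 100% also occur in another gene's transcript, so their near-absence of reads is not read as low expression. The share of mt-Atp8 windows found elsewhere was 0%, but 21.1% of its bases overlap mt-Atp6. Of the windows of mt-Co1, 51.1% also occur in another gene's transcript, so its level is uncertain.

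Fatty acid genes, like those of several other lists, set libraries 2 and 3 apart from the rest. These were the 2 highest libraries for 17 of the 20 genes and the 2 lowest for 0, against 18.3% and 19% of the 13351 fitted genes, the exceptions being Cpt2, Ppard and Pparg. The summed list stood at 2725, 4492, 4381, 2770, 2902 and 2785 CPM in libraries 1 to 6. Fabp4, a fatty acid binding protein of capillary endothelium and fat cells, stood at 20.1, 335, 302, 26.6, 36.1 and 25.6 CPM. Cd36, the fatty acid uptake receptor, stood at 158, 389, 363, 166, 142 and 142 CPM, and Acadl, a mitochondrial acyl-CoA dehydrogenase, at 562, 1073, 1015, 635, 697 and 663 CPM. The 2 libraries did not overlap with the other 4 for these 3 genes. Without them the summed list varied by 1.07-fold instead of 1.65-fold. Libraries 2 and 3 were also the highest pair for 12 of 22 thick filament and 11 of 20 Z-disc and cytoskeleton genes. The same held for 14 of 30 glycolysis and glucose uptake and 8 of 15 mitochondrially encoded genes. They were the lowest pair for 4, 2, 4 and 0 of these genes. The split is thus not particular to fatty acid genes.

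Creatine kinase showed the same split. Ckm, the muscle form, stood at 33.2, 256, 251, 45.6, 47.5 and 31.0 CPM in libraries 1 to 6. Ckb, the brain and embryonic form, stood at 86.2, 79.0, 86.8, 94.7, 89.1 and 124 CPM. As a share of 4 creatine kinase genes per kilobase Ckm was 56.5% and 53.8% in libraries 2 and 3 and 14.8%, 17.8%, 19% and 10.3% in libraries 1, 4, 5 and 6. The mean log2 ratio of Ckb to Ckm was 1.25 ± 1.57 (SD, n = 6), which did not pass (adjusted exact permutation p = 0.135).

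Of 30 cell cycle genes 28 were detected, against 54.8% of protein-coding genes. Their sum lay between 5365 and 5911 CPM, and 0 of 28 fitted genes were variable, which is near the 1.46% of all fitted genes. Cdk4 had 285 CPM per kb, Rrm2, the S-phase ribonucleotide reductase subunit, 255, Top2a 141, and Mki67, a marker of cycling cells, 25.4 CPM per kb. Ccnd2 was 6.56-fold above Ccnd1 and 3.41-fold above Ccnd3, and made up 69.0% of D-type cyclins. Cdk4 was 30.3-fold above Cdk6. Over the length settings Cdk4 was 5.39- to 30.3-fold above Cdk6, and Ccnd2 5.56- to 11.3-fold above Ccnd1 and 3.41- to 10.3-fold above Ccnd3. Cdkn2b, a cell cycle inhibitor, averaged 0.472 CPM. Its neighbour Cdkn2a was listed at 0, which is not read as absence.

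Matrix genes were led by Sparc, a collagen-binding glycoprotein, at 1590 CPM per kb, followed by Postn, periostin, at 263, Fn1, fibronectin, at 81.1, and the fibrillar collagens Col3a1 and Col1a1 at 78.5 and 68.7 CPM per kb. Of 29 genes 27 were detected, against 54.8% of protein-coding genes, and Vtn, vitronectin, averaged 0.0467 CPM. Col1a1 stood at 420, 606, 571, 387, 260 and 201 CPM in libraries 1 to 6. Hapln1, a link protein of cushion hyaluronan matrix, stood at 193, 38.7, 33.2, 101, 106 and 140 CPM, and Has2, the hyaluronan synthase, ranged from 4.96 CPM in library 3 to 25.6 CPM in library 1. Libraries 2 and 3 were the lowest for both hyaluronan genes and the highest for Col1a1. Over the 29 listed matrix genes they were the highest pair for 7 and the lowest for 11, against 18.3% and 19% of all fitted genes.

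Imprinted genes of fetal growth were among the abundant transcripts. H19 had 785 CPM per kb, Mest 529, Cdkn1c 399, Grb10 335 and Igf2 307 CPM per kb. Meg3 had 0.495 CPM per kb, while Dlk1 and Rian were listed at 0 in all 6 libraries, Dlk1 under 2 gene IDs, which is likewise not read as absence. Phlda2, an imprinted gene of the placenta, averaged 0.220 CPM.

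The libraries held markers of muscle and of several non-muscle cell types. In bulk tissue, fewer cells of a type and less RNA per cell cannot be told apart. All 10 cardiomyocyte markers, 17 of 18 endothelial and endocardial, all 14 epicardial, 14 of 15 cushion and interstitial and 10 of 11 mural markers were detected, against 54.8% of protein-coding genes. Pecam1, an endothelial adhesion molecule, had 46.4 CPM per kb, Emcn, an endomucin of endocardium and veins, 58.3, and Npr3, an endocardial natriuretic peptide receptor, 11.1. The epicardial genes Krt19 and Wt1 had 40.8 and 10.7 CPM per kb. Sox9, a factor of cushion mesenchyme, had 22.2 CPM per kb, and Myh11, of mature smooth muscle, averaged 1.47 CPM. The defining markers of the labelled tissue were thus present, Actc1, Myl2 and Tnnt2 among the highest of all genes.

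Lung, skeletal muscle and liver markers had low sums. Lung and foregut markers summed to 0.591 to 1.58 CPM over 9 genes, with 0 of 9 detected, against 54.8% of protein-coding genes. Skeletal muscle markers summed to 5.64 to 8.15 CPM over 10 genes, and Myod1, Myf5, Pax7 and Pax3 averaged under 1 CPM. Liver markers summed to 2.47, 2.07, 3.48, 12.4, 13.1 and 14.5 CPM in libraries 1 to 6, with Afp, alpha-fetoprotein, at 0.0881, 0.0985, 0.285, 5.93, 5.33 and 5.51 CPM. Libraries 4 to 6 thus had the higher liver sums. Leukocyte genes summed to at most 137 CPM over 15 genes, 12 of which were detected, against 54.8% of protein-coding genes. C1qb, a complement gene of macrophages, had 9.77 CPM per kb. Neuronal markers summed to 19.7 to 39.7 CPM over 10 genes, of which 5 were detected, a share near the 54.8% of all protein-coding genes. Sox10 and Foxd3, of neural crest, averaged 0.0756 and 0.0168 CPM, so most of the neural crest list's sum came from Ednrb at 309 to 463 CPM, which endothelium also expresses.

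**Figure D3:**
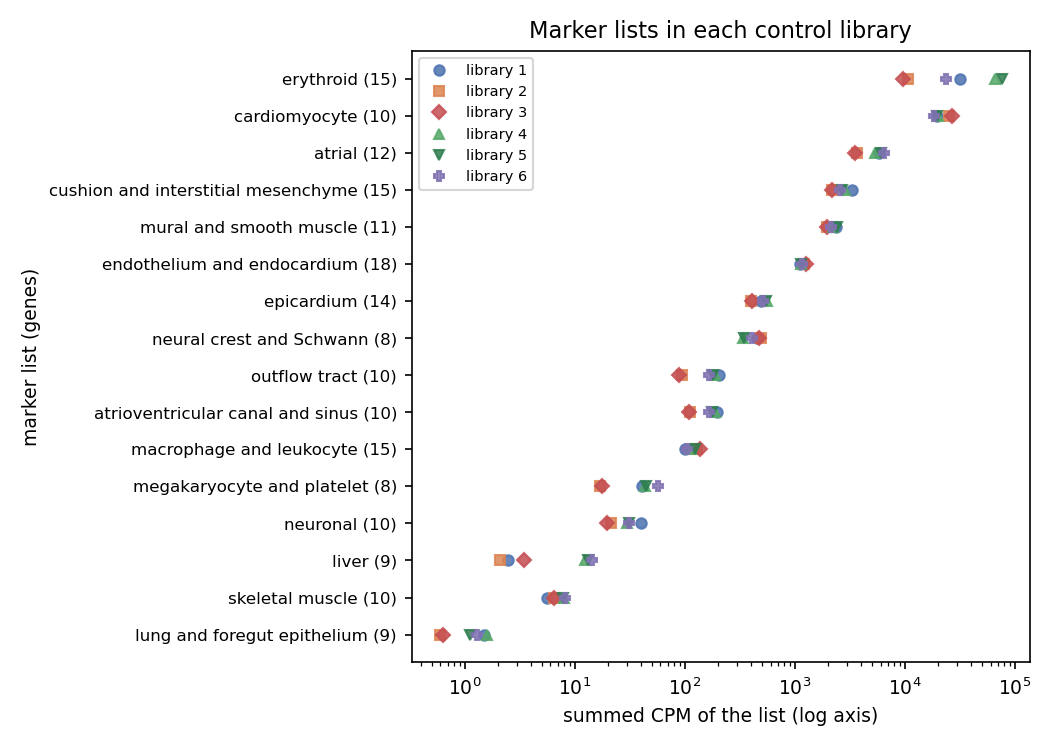
Summed CPM of 16 marker lists, with the number of genes found in parentheses, on a log axis. Each symbol is 1 of the 6 control libraries. Libraries 2 and 3 are lowest for the erythroid, atrial, outflow, atrioventricular canal, epicardial, megakaryocyte, cushion, mural, neuronal and lung lists, and highest for the cardiomyocyte, endothelial, leukocyte and neural crest lists. Lists differ in length and transcript length, so levels are read between libraries and not between lists.

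Of 16 marker lists, 6 differed by over 2-fold between the lowest and highest library, and 2 did so without libraries 2 and 3. Erythroid genes ranged 7.82-fold, from 9675 to 75640 CPM, and 3.18-fold without libraries 2 and 3. Of 13 fitted erythroid genes 11 were variable, against 1.46% of all fitted genes. Liver genes ranged 6.99-fold at very low sums. Platelet genes ranged 3.35-fold, and Pf4, platelet factor 4, stood at 8.96 and 7.93 CPM in libraries 2 and 3 and at 18.1 to 29.6 CPM in the other 4.

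The outflow tract, atrioventricular canal and sinus, and atrial lists had their lowest sums in libraries 2 and 3. These libraries were the lowest pair for 6 of 10 outflow, 8 of 10 atrioventricular canal and sinus and 8 of 12 atrial genes. This compares with 19% of all fitted genes. The outflow tract list summed to 205, 94.2, 88.7, 188, 181 and 164 CPM in libraries 1 to 6. The atrioventricular canal and sinus list summed to 196, 110, 109, 188, 176 and 166 CPM, and the atrial list to 5804, 3648, 3536, 5333, 6021 and 6474 CPM. The atrial sum, 5136 CPM on average, included Myl7 at 2023 and Myl4 at 1892 CPM. Nppa, named above as trabecular, is in both the atrial and the cardiomyocyte list. The atrial sum is thus not read as an amount of atrial tissue. Isl1, of the second heart field and sinus node, stood at 18.2, 2.86, 3.77, 17.4, 15.5 and 9.07 CPM, and Bmp4, an outflow growth factor, at 37.2, 11.9, 12.2, 30.1, 26.5 and 25.4 CPM. Epicardial genes were lowest in both libraries for 12 of 14 markers, against 19% of all fitted genes, with Msln and Sema3d as the exceptions. The cushion, mural, neuronal and lung sums were lowest in these libraries as well, though their genes were less uniform. Libraries 2 and 3 were the lowest pair for 9 of 15 cushion, 4 of 11 mural, 4 of 10 neuronal and 1 of 9 lung genes. They were the highest pair for 1, 3, 1 and 0 of these genes. The cardiomyocyte list ran the other way, with 19376, 25343, 26901, 19941, 19692 and 18315 CPM, and so did the endothelial, leukocyte and neural crest sums. Libraries 2 and 3 were the highest pair for 7 of 10 cardiomyocyte, 7 of 18 endothelial, 4 of 15 leukocyte and 2 of 8 neural crest genes. This compares with 18.3% of all fitted genes. They were the lowest pair for 2, 3, 0 and 2 of these genes. The endothelial sum was 1213 and 1273 CPM in libraries 2 and 3 and 1118 to 1168 CPM in the others. Whether dissection, stage or another feature separates these 2 libraries was not tested, and the labels name no batch.

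The spread between control libraries was modest for most genes. It was measured as the biological coefficient of variation, the part of the variation beyond counting error, which was fitted for 13351 genes. The median was 0.150, with a middle range of 0.124 to 0.191, and the common value over all genes was 0.168. Without libraries 2 and 3 the common value was 0.133. The median was 0.199 for genes of 1 to 10 CPM, 0.133 for 10 to 100 CPM, 0.127 for 100 to 1000 CPM and 0.148 for the 89 genes above that. Actc1, Malat1 and Rpl4, a ribosomal protein, had values of 0.150, 0.152 and 0.120, all under the trend at their level.

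**Figure D4:**
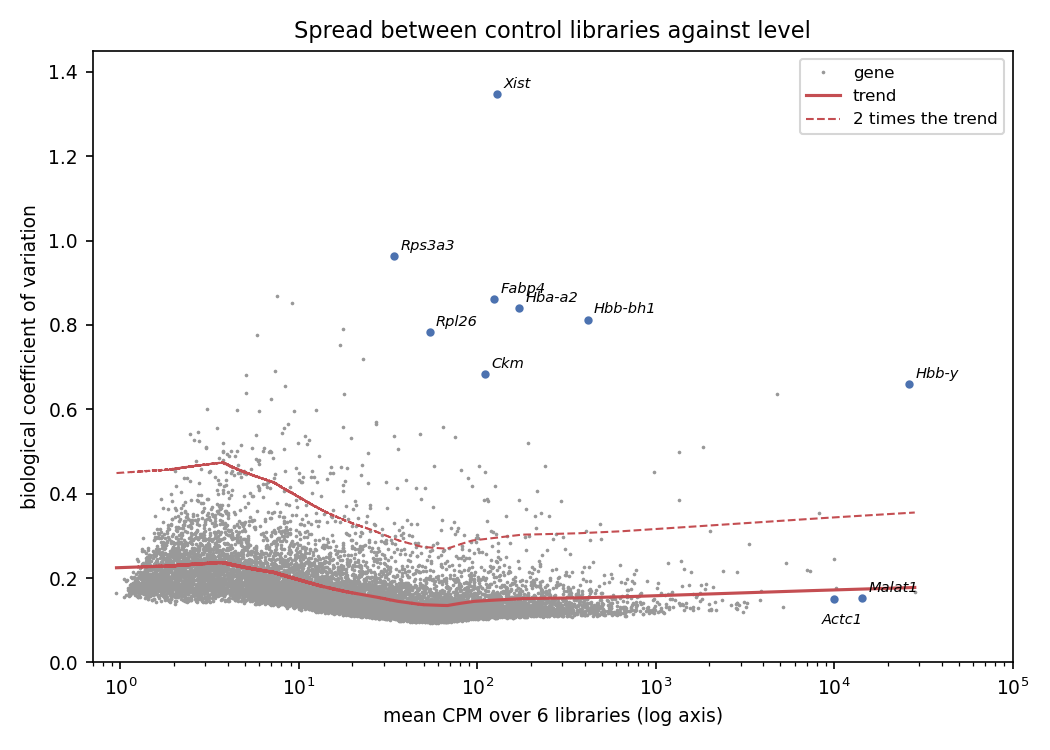
Biological coefficient of variation against mean CPM on a log axis, for 13351 fitted genes (grey points). The solid line is the trend with level and the dashed line 2 times the trend. Named genes are in blue. Xist lies highest, Hbb-y lies far above the trend at its level, and Actc1 and Malat1 lie near the trend.

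A gene was called variable where its coefficient was at least 2 times the trend at its level. This held for 195 of 13351 genes (1.46%), of which 139 had a mean of 10 CPM or more. Libraries 2 and 3 were the 2 highest for 70 of the 195 and the 2 lowest for 86, against 18.3% and 19% of all fitted genes. Libraries 4 and 5 were the 2 highest for 53 and the 2 lowest for 15, against 15.2% and 12.8% of all fitted genes. Some variable genes divided the libraries otherwise, with libraries 5 and 6 lowest, and this division was not counted. Socs4 stood at 124, 112, 119, 114, 32.8 and 29.6 CPM in libraries 1 to 6. Pam stood at 1518, 2200, 1699, 1502, 636 and 546 CPM. When libraries 2 and 3 were left out, 69 genes were variable, and 58 of these were among the 195. Without library 2 alone 127 were variable, and DESeq2's gene-wise dispersion gave 526.

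**Figure D5:**
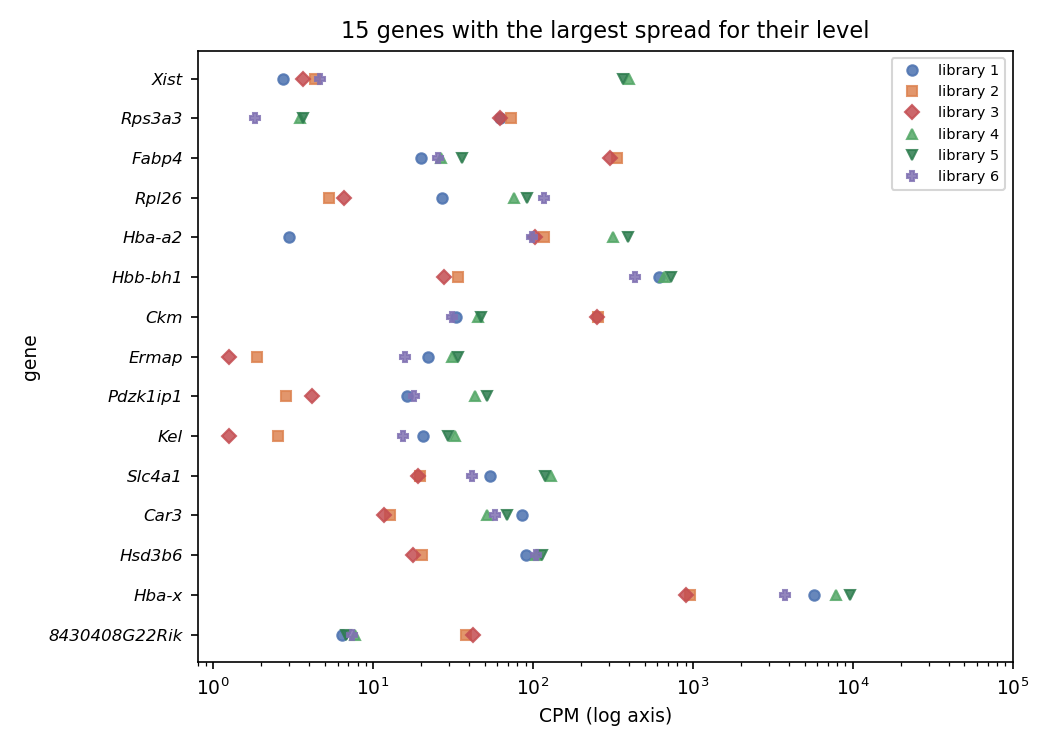
CPM on a log axis of the 15 genes with the largest coefficient of variation relative to the trend, among genes with a mean of at least 10 CPM. Each symbol is 1 of the 6 control libraries. Fabp4, Ckm and 8430408G22Rik are high in libraries 2 and 3, and the red cell genes Hbb-bh1, Ermap, Kel and Slc4a1 are low there.

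Among the 15 most variable genes with at least 10 CPM, 6 were red cell genes: Hbb-bh1, Hba-x, Hba-a2, the blood group genes Ermap and Kel, and the anion exchanger Slc4a1. Ermap stood at 22.0, 1.87, 1.26, 31.3, 34.0 and 15.9 CPM in libraries 1 to 6, and Slc4a1 at 54.3, 19.6, 19.1, 130, 119 and 41.3 CPM. Pdzk1ip1 had a like order and stood at 16.2, 2.86, 4.16, 43.6, 51.7 and 18.1 CPM. Without libraries 2 and 3, the ratio to the trend was 1.17 for Hbb-bh1, 1.60 for Hba-x, 1.56 for Ermap and 1.54 for Kel. These 4 were under the threshold of 2. The ratio stayed above it for Hba-a2, at 5.82, and for Slc4a1, at 2.42.

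Fabp4, Ckm and 8430408G22Rik were high in libraries 2 and 3, the last with 37.9 and 42.0 CPM against 6.43 to 7.67 CPM in the others. Car3, a muscle carbonic anhydrase, and Hsd3b6, a steroid dehydrogenase, were low there, with Car3 at 85.6, 12.7, 11.8, 51.6, 68.5 and 58.1 CPM. When these 2 libraries were left out, the ratio to the trend was 1.26 for Fabp4, 1.24 for Ckm, 1.27 for Car3 and 0.944 for Hsd3b6, none at the threshold of 2.

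Rps3a3, a ribosomal protein pseudogene, and Rpl26, a ribosomal protein, divided the libraries differently. Rps3a3 stood at 61.8, 73.0, 62.4, 3.48, 3.62 and 1.84 CPM, so that libraries 1 to 3 were high and libraries 4 to 6 low. Rpl26 stood at 26.9, 5.32, 6.56, 76.2, 91.6 and 118 CPM, in the opposite order. Both share windows with other transcripts, 65.2% and 47.4% of them, so the placing of such reads bears on their counts. The liver sums above divided libraries 1 to 3 from 4 to 6 in the same way as Rpl26.

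Xist, the RNA of the inactive X chromosome, had the largest ratio to the trend of the 15, at 9.09. It stood at 2.73, 4.33, 3.65, 397, 366 and 4.66 CPM in libraries 1 to 6. The Y-linked genes were opposite. Ddx3y stood at 234, 224, 235, 0.475, 0.805 and 171 CPM, Eif2s3y at 148, 171, 152, 0.791, 0.705 and 153 CPM, and Kdm5d and Uty were at or under 0.503 CPM in libraries 4 and 5. Libraries 4 and 5 thus had Xist high and the Y-linked genes near 0, as in female tissue, the other 4 the reverse, and none had both high. The labels used here give no sex.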

How the data were processed

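RNA from E12.5 ventricles of 6 control samples, extracted with Trizol per the labels' protocols, was sequenced in bulk. The authors deposited 1 table of raw read counts per gene for all 12 libraries, per the file headers. The submitters' processing notes name featureCounts, Subread and edgeR; for the build, tool versions, alignment options and strand, the sources used here state nothing. The authors' own table of differences was not used. Of 41422 rows with 40800 gene IDs, 622 repeats of 402 IDs held identical counts and were left out.

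Here CPM came from TMM-scaled totals (edgeR 4.0.16, limma 3.58.1, R 4.3.3). Lengths were the exons of the transcript with the longest coding sequence in GENCODE M21 (GRCm38). Pairs were tested with 0.1 CPM added by a two-sided exact sign-flip permutation test, adjusted over 66 pairs. Variation between libraries was estimated by edgeR for genes kept by its default filter, with DESeq2 1.42.0 as an alternative. On simulated counts for 13033 genes, 62.2% of genes set to 4-fold and 94.6% of those set to 8-fold the trend were recovered, and 0.870% of 115 calls had been simulated under 2-fold. Other scalings, filters, lengths, added constants and left-out libraries were tried. Limits from a count of 0 take 3 counts and cover counting error only.

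The members, lists and pairs were chosen with earlier results of these data known. Length, family and left-out pairs of libraries were chosen after seeing the files. Genes named were drawn from the 20 highest by CPM and per kilobase, the pairs, the 5 highest and the cell-defining low members of each list, the 15 most variable genes of at least 10 CPM, and sex-linked genes. Other named genes, such as Isl1, Bmp4, Hapln1, Has2, Cd36, Pf4, Afp, Socs4 and Pam, were chosen after their values were seen. Promoters are from RefSeq on GRCm38.p6; 6 genes matched by symbol, and Hbb-bh1 did not.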

Additional observations from a re-analysis of the deposited data

Results flagged for a closer look

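Each of 140 values was looked at for a library far from the other 5, with the gap to the nearest library set against the range of all 6. Such a gap is passed by chance in about 1 in 20 sets of values, and 2 of 140 passed. The mitochondrial 12S ribosomal RNA mt-Rnr1 stood at 3694 CPM in library 5, against 1824 to 2418 CPM in the other libraries. The log2 ratio of the connexins Gjc1 to Gja4 was 0.37 in library 1, against -0.15 to 0.01 in the others.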

How the results depend on the processing

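No paired analysis was possible because only the control libraries were used. Genes detected ranged from 10050 (5 CPM) to 14242 (0.5 CPM). The share of the 20 most abundant genes was 14.3% without haemoglobin genes and 13.2% without mitochondrially encoded genes. Called pairs numbered 57 to 60 over the lengths and added constants. With the union of exons as length, log2 ratios were 1.00 for Myl7/Myl2, -1.09 for Gjc1/Gja4, -0.13 for Pfkl/Pfkm, 0.53 for Fgfr1/Fgfr2 and 0.21 for Meis1/Meis2, the reverse of the values reported. With coding length Itpr2/Itpr1 was -0.12, Erbb2/Erbb4 -0.24, Hand2/Hand1 0.18, Meis1/Meis2 0.057 and Fgfr1/Fgfr2 0.48. With no division by length these were -0.14, -0.30, 0.19, 0.021 and 0.47, and Vegfa/Vegfb was 0.24. With 1 library left out, the uncalled Gjc1/Gja4 ranged from -0.051 to 0.053 and no other ratio changed sign; there, 5 libraries allow no exact p under 0.0625. Variable genes numbered 326 with no low-count filter, 526 by DESeq2's gene-wise dispersion, 69 without libraries 2 and 3, 110 with libraries 2 and 3, and 4 and 5, summed, and 127 to 181 with 1 library left out. Marker lists over 2-fold numbered 2 without libraries 2 and 3, and 5 to 6 with 1 library left out. The cause of these moves was not tested beyond the settings named. Genes near 1 CPM rest on 10.1 to 17.5 reads, which limits their ratios.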
